A study of Mus musculus with 19 samples.

Results

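ATAC-seq of mouse forebrain neural progenitors gave 44878 regions with a summit in at least 2 libraries. Of these, 806 had a share of libraries with a summit at least 0.4 higher on a retinoic acid diet in both genotypes. A summit is the position of highest signal within a called peak of open chromatin. The regions were built from the 29112 summits with the highest deposited score in each of 19 libraries, which is the length of the shortest list. Selected summits within 200 bp of each other were chained into a region, and regions with summits from at least 2 libraries were kept. A member had a share of libraries with a summit at least 0.4 higher in Control+RAdiet than in Control and at least 0.4 higher in Mutant+RAdiet than in Foxc1Mutant. The members were thus chosen by the measured differences between diet and no diet, whose sizes are given as a description without a test. Membership holds for this number of summits: with all deposited summits the rule gave 226 regions, and only 30 of the 806 members were found again.

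All cells were E14 forebrain progenitors enriched with magnetic beads for Prom1, a surface protein of neural stem cells. The 4 Control and 5 Control+RAdiet libraries carry the genotype label Foxc1 WT, and the 4 Foxc1Mutant and 6 Mutant+RAdiet libraries are the Foxc1 hith/LacZ groups. Control and Foxc1Mutant received no diet, and Control+RAdiet and Mutant+RAdiet received the RA diet, with no dose or duration in the labels. Foxc1Mutant 1 is labelled Foxc1 WT against its title, and was kept with the mutants by title; without it the same rule gave 644 regions, which covered 580 of the 806. The labels do not state that the libraries came from separate animals, so any p-value measures only the spread between these samples.

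Foxc1 is a transcription factor required to form the meninges, the membranes around the brain, and the meninges are a source of retinoic acid for the cortex beneath them. Retinoic acid is made from vitamin A and binds nuclear receptors, the RARs, which pair with RXRs on DNA. In the developing cortex, radial glia are the dividing stem cells, which give rise to intermediate progenitors and neurons.

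Members lay mostly far from gene ends, and those at gene starts are the ones for which promoter sequence was at hand. The 5 stretches below are the 3 protein-coding promoters with the largest share differences (Hs3st3a1, Fam50b and Gng8) and 2 promoters of genes described further on (Rarg and Cdkn1a). Each is the 250 bases before a start, from RefSeq on GRCm38.p6, written 5′ to 3′ on the gene's strand, with the bases that the member spans in capitals.
Hs3st3a1, chr11:64435082-64435331, plus strand: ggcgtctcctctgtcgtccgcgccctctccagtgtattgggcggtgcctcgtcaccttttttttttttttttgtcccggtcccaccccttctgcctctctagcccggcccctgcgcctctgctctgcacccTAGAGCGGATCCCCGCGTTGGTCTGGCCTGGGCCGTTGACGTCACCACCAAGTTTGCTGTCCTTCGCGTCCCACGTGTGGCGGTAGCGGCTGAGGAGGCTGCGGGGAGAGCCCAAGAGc
Fam50b, chr13:34734600-34734849, plus strand: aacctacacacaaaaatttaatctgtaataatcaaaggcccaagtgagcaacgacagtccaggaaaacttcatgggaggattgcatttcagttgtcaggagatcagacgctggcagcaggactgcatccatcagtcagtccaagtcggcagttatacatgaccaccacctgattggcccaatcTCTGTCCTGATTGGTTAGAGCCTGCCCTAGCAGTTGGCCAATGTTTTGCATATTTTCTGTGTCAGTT
Gng8, chr7:16891536-16891785, plus strand: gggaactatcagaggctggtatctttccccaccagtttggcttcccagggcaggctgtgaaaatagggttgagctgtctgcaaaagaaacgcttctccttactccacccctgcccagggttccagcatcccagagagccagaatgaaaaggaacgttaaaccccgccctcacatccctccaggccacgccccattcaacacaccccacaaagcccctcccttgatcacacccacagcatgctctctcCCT
Rarg, chr15:102246501-102246750, minus strand: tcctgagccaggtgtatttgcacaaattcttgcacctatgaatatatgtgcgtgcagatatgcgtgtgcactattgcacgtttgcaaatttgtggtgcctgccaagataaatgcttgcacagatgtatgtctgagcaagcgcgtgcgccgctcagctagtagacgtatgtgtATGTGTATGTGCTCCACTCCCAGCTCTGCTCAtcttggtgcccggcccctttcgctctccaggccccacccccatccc
Cdkn1a, chr17:29093519-29093768, plus strand: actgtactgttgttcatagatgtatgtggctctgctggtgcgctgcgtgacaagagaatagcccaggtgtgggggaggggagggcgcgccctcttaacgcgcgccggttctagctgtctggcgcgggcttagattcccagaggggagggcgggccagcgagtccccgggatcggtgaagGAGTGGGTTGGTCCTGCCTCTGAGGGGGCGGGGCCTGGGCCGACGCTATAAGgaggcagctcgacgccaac

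The member at Hs3st3a1, a heparan sulfate sulfotransferase, filled much of the sequence just before the start, whereas the member at Gng8, a G protein gamma subunit, reached only the last 3 of the 250 bases and ran into the gene. At Cdkn1a, the cell cycle inhibitor p21, the member spanned 52 bases shortly before a start. That start lies inside the gene, and the member was 2744 bp from a gene end. At Rarg, a retinoic acid receptor, the member spanned 32 bases before a start that also lies inside the gene. In all, 38 members fell in 42 of the 32851 promoter windows, which run from 250 bases before to 50 after a start, and 30 of these windows belonged to 29 protein-coding genes. The nuclear receptor half-site AGGTCA, searched on both strands, was in 2 of the 42 windows (4.76%) and in 16.3% of all windows. The direct repeat DR5 that RAR and RXR pairs bind was in 0 of the 42 and in 32 of all windows (0.0974%). TGGGAA, the core read by Rbpj in the Notch pathway, was in 12 of the 42 (28.6%) and in 25.6% of all windows, and ACAAAG, a Sox-type core, was in 10 (23.8%) and in 18.7%. The 10 windows with ACAAAG include overlapping ones of the same gene, at 1110038B12Rik and at Gm13373, so some sites were counted repeatedly. All these counts are matches of letters in short windows, and they describe only the members at gene starts.

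How far the gain held in a library that did not choose the regions was read by repeating the choice without each library and then looking in that library. Over the controls, 24.8% ± 14.3 (SD, n = 4) of regions so chosen had a summit without the diet and 62.0% ± 10.3 (SD, n = 5) with it. Over the mutants, the values were 36.8% ± 21.8 (SD, n = 4) and 58.4% ± 18.3 (SD, n = 6). Regions of the whole set were found at 55.0% to 64.7% in any single library. The difference in the controls was 37.2 percentage points, and it lay between 24.9 and 40.2 when any 1 library was left out. In the mutants it was 21.6 points, and Mutant+RAdiet 6 moved it most, to 36.5 points when left out. With all deposited summits in place of the matched set, the same reading gave 21.9 points in controls and 0.0428 in mutants.

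By library, Control 1 to 4 held 42.6%, 29.9%, 15.6% and 11.1%, and Control+RAdiet 1 to 5 held 48.0%, 70.1%, 70.7%, 66.9% and 54.4%. The control groups did not overlap. Foxc1Mutant 1 to 4 held 20.2%, 16.7%, 61.1% and 49.3%, and Mutant+RAdiet 1 to 6 held 67.2%, 72.2%, 70.5%, 51.4%, 64.9% and 24.3%. The mutant groups overlapped: Foxc1Mutant 3 without the diet stood above Mutant+RAdiet 4 and 6 on it. No p-value is given for these percentages, because the regions differ from library to library and share most of their other libraries.

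**Figure D1:**
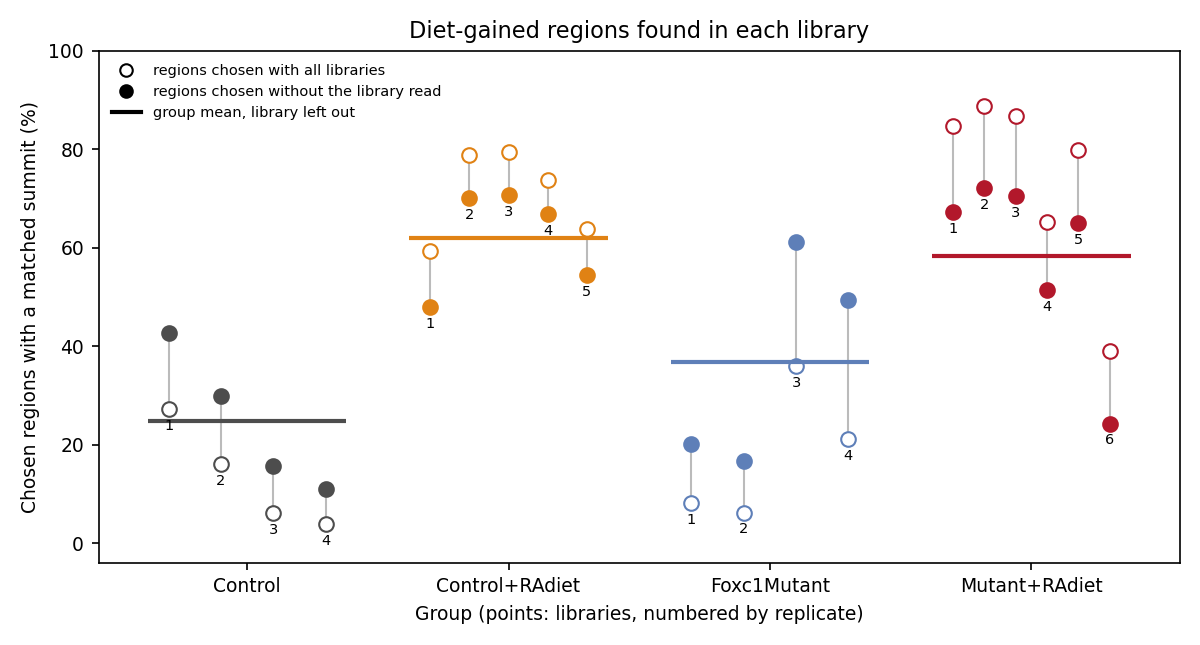
Percentage of chosen regions with a matched summit (vertical axis) in each library, by group (horizontal axis, points numbered by replicate). Open points use regions chosen with all libraries and filled points regions chosen without the library read; bars are the means of the filled points, 24.8%, 62.0%, 36.8% and 58.4% from left to right. By the filled points, Foxc1Mutant 3 and 4 and Mutant+RAdiet 4 and 6 are the libraries in which the mutant groups overlap.

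Library properties moved with these values. Control libraries had 77593 to 122591 deposited summits and Control+RAdiet libraries 59106 to 91114, and the 2 controls with lists of like length, Control 1 and 2, held 42.6% and 29.9% against 48.0% to 70.7% in Control+RAdiet 1 to 4. In the mutants, Foxc1Mutant 4 with 49804 summits held 49.3%, while Mutant+RAdiet 5 with 52848 held 64.9% and Mutant+RAdiet 6 with 48323 held 24.3%. The share of a library's regions beyond 100 kb from a gene end was 20.2% and 20.3% in Foxc1Mutant 3 and 4 and 15.0% and 17.4% in Foxc1Mutant 1 and 2, and it was 14.5% in Mutant+RAdiet 6. The part of list length and of this share in the result was not tested. In libraries of enriched cells read together, fewer cells of a type and less open chromatin per cell cannot be told apart.

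The 2 diet contrasts share no library. Of the 3618 regions at least 0.4 higher on the diet in controls (8.06% of all regions), 22.3% were also gained in mutants, where 6.15% of all regions were, and 3.51% were lost by the same margin, where 7.11% of all regions were. From the other side, 29.2% of the 2758 regions gained in mutants were gained in controls, and 3.77% were lost there. Regions with a summit in every library can pass neither way and are part of the background. The regions gained in controls were found in 51.1% ± 12.2 (SD, n = 6) of Mutant+RAdiet and 35.0% ± 17.6 (SD, n = 4) of Foxc1Mutant, and those gained in mutants in 60.3% ± 7.93 (SD, n = 5) of Control+RAdiet and 40.9% ± 7.29 (SD, n = 4) of Control. The same rule turned round gave 802 regions lost on the diet in both genotypes (1.79% of all regions, against 1.80% gained). With all deposited summits it gave 9323 lost regions, against 226 gained. Deposited lists off the diet had means of 98555 (Control) and 95379 (Foxc1Mutant) summits. On the diet the means were 77803.8 (Control+RAdiet) and 63769 (Mutant+RAdiet). The part of list length in these counts was not tested.

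The members were regions of middle to low rank, and most had a weaker summit in libraries off the diet. The median rank of their matched summits was 21698.5, against 14228 for all regions, where rank 1 is the strongest summit of a library. Regions missing from at least 1 library had a median of 20283 and the regions lost in both genotypes 23129, so these classes ranked low as well. In Control, 76.4% ± 9.47 (SD, n = 4) of members had only a deposited summit ranked below 29112 and 10.3% ± 1.65 had none within 200 bp. In Control+RAdiet, 65.2% ± 11.1 (SD, n = 5) of members ranked between 14557 and 29112 and 5.91% ± 2.86 ranked higher. Foxc1Mutant had 67.3% ± 18.3 (SD, n = 4) of members below the matched set, and Mutant+RAdiet had 63.5% ± 16.7 (SD, n = 6) in its lower ranks and 10.6% ± 4.56 in the upper ones.

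**Figure D2:**
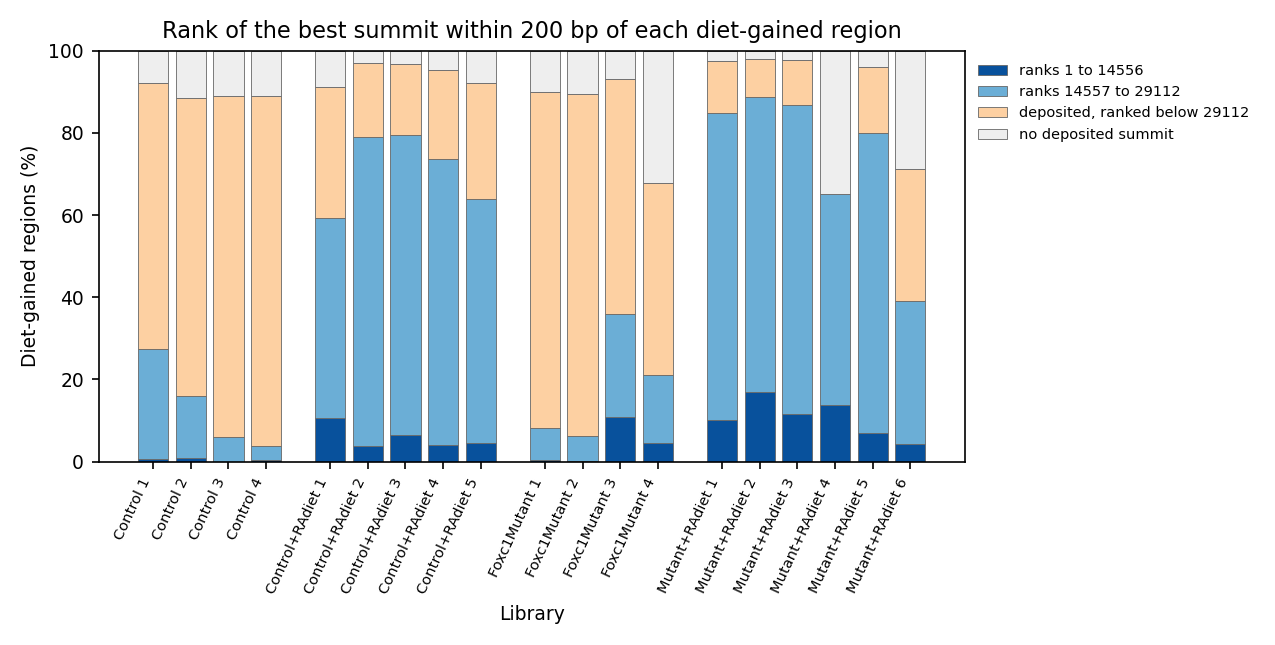
Each bar is a library (horizontal axis) and splits the 806 members by the rank of their best summit within 200 bp (vertical axis, percentage of members). Off the diet the largest class is a deposited summit ranked below the matched set, and on the diet it is the lower part of the matched set; Mutant+RAdiet 4 has no weaker class because its whole list is the matched set.

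Where a member had no matched summit in a Control library, a weaker summit had been deposited in 2464 of 2795 cases (88.2%; 77.7% over all regions). For Foxc1Mutant it was 2169 of 2648 (81.9%; 70.7% over all regions), for Control+RAdiet 943 of 1166 (80.9%; 71.6%) and for Mutant+RAdiet 653 of 1253 (52.1%; 52.3%). A deposited summit of some rank was present in all 8 libraries off the diet at 447 members (55.5%; 66.1% of all regions) and in all 19 libraries at 249 (30.9%; 41.0%). By all deposited summits, 31 members (3.85%; 0.176% of all regions) still differed by at least 0.4 in both genotypes.

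In the matched set, 239 members (29.7%; 5.76% of all regions) had no summit in any of the 8 libraries off the diet. On the diet 76 members had one in all 11 libraries, as does every region found in all libraries, none of which can be a member. Of all regions, 71.0% were missing from some library, and the rest were found in all. A summit in all 11 was thus less frequent among members than over all regions. Among regions missing from some library the rule favours both patterns, so these counts describe the choice. Only the member at Lix1 had both patterns. At the threshold, 208 members had a smaller difference of 0.4, which fixes 0% of Control and 40.0% of Control+RAdiet. These 208 had a summit in 10.9% of Foxc1Mutant and 64.5% of Mutant+RAdiet libraries on average. In the controls 34 members had a summit in every library on the diet and none off it, as did 0.223% of all regions, and in the mutants 11 did (0.0535% of all regions); the rule used both contrasts. Just outside the threshold, 134 regions stood at 0.35, which fixes 25% of Control and 60.0% of Control+RAdiet. They had a summit in 17.0% of Foxc1Mutant and 72.3% of Mutant+RAdiet libraries on average.

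Members were distal. Of the 806, 59 (7.32%) lay within 1 kb of an end of a protein-coding gene, against 26.2% of all regions and 7.23% of the regions lost in both genotypes. A further 115 (14.3%) lay between 1 and 10 kb, 372 (46.2%) between 10 and 100 kb, and 260 (32.3%) beyond 100 kb, where 19.7% of all regions and 22.9% of the lost regions lay. The median distance was 45255.5 bp for members, 37153 bp for lost regions, 23708 bp for regions missing from at least 1 library and 16381.5 bp for all regions. Inside a gene body lay 410 members (50.9%; 53.5% of all regions). The rule requires a region to be absent from some libraries, and such regions are more distal as a class, so the distance of members is read beside the 23708 bp and not only beside the whole set.

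**Figure D3:**
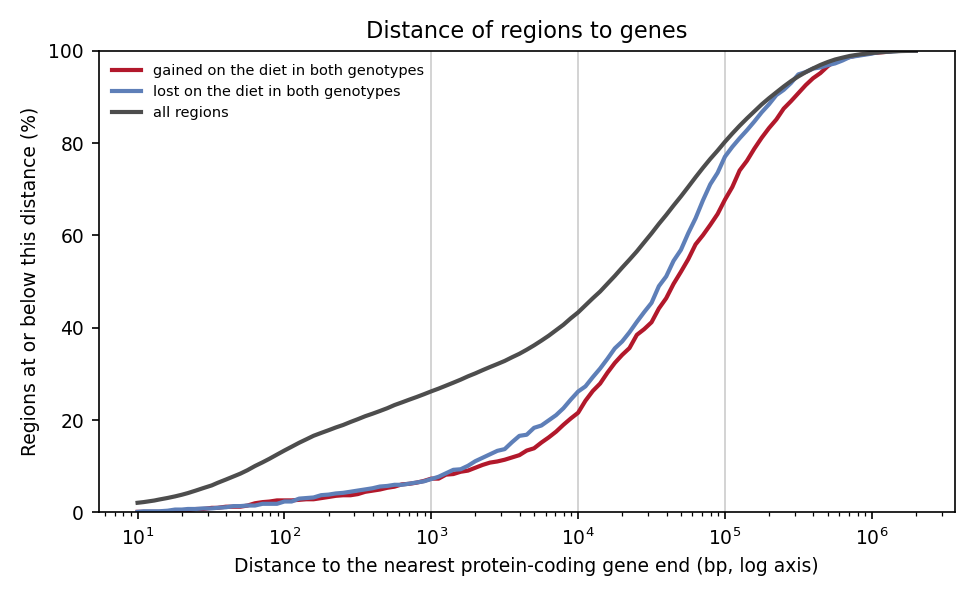
Cumulative percentage of regions (vertical axis) by distance from the region midpoint to the nearest end of a protein-coding gene (horizontal axis, log scale), for regions gained on the diet, lost on it, and all regions. The curve of diet-gained regions (median 45255.5 bp) runs to the right of that of all regions (median 16381.5 bp).

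Distance also separated libraries. Foxc1Mutant 1 had a matched summit at 35.6% of the members within 1 kb of a gene end and at 1.15% of those beyond 100 kb. Mutant+RAdiet 6 had 64.4% and 30.8%, and Foxc1Mutant 3 the opposite order, 25.4% and 45.0%. In Control+RAdiet 4 the values were 71.2% and 79.6%.

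The 25 members with the largest sums of both differences lay nearest to genes of many kinds, and 9 of them were beyond 100 kb from any gene end. Among them, 22 had no matched summit off the diet, as had 5.76% of all regions, and ranking by these differences favours this. A deposited summit of some rank was present in all 8 libraries off the diet at 17 of them (66.1% of all regions). The largest was at chr17:17409168-17409287 (mm10), 6541 bp from an end of Lix1 and inside that gene. It ranked 30844, 35250, 36936 and 44913 in Control 1 to 4 and 42878, 49375, 31213 and 34966 in Foxc1Mutant 1 to 4. On the diet it ranked 18555, 12284, 14888, 17189 and 18596 in Control+RAdiet 1 to 5 and 15835, 16222, 24004, 11210, 14191 and 26257 in Mutant+RAdiet 1 to 6. Every library on the diet ranked this summit above every library off it, and the lowest of the former, Mutant+RAdiet 6, ranked 26257.

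A region at chr4:125485752-125485883, 4442 bp from Grik3, which encodes a kainate-type glutamate receptor subunit, came next. It ranked between 29201 and 67090 in the Control and between 35844 and 59774 in the Foxc1Mutant libraries, between 10306 and 22268 in Control+RAdiet, and between 14148 and 36559 in Mutant+RAdiet. Here Mutant+RAdiet 6 fell among the libraries off the diet. Inside Slco3a1, an organic anion transporter, the region at chr7:74508365-74508412 ranked 30613 or lower in all 8 libraries off the diet and 14379 to 26806 in 10 of the 11 on it, with no summit in Mutant+RAdiet 4.

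Further members of this group lay by Asxl2, a Polycomb-associated protein (8112 bp), Cnr1, the cannabinoid receptor of neurons (191225 bp), Ackr3, a scavenging receptor for the chemokine Cxcl12 (102302 bp), Creb5, a transcription factor (8710 bp), and inside Abat, the enzyme that breaks down GABA, and Trp63, a p53 family factor. The nearest gene is a label of position, and no target was measured.

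**Figure D4:**
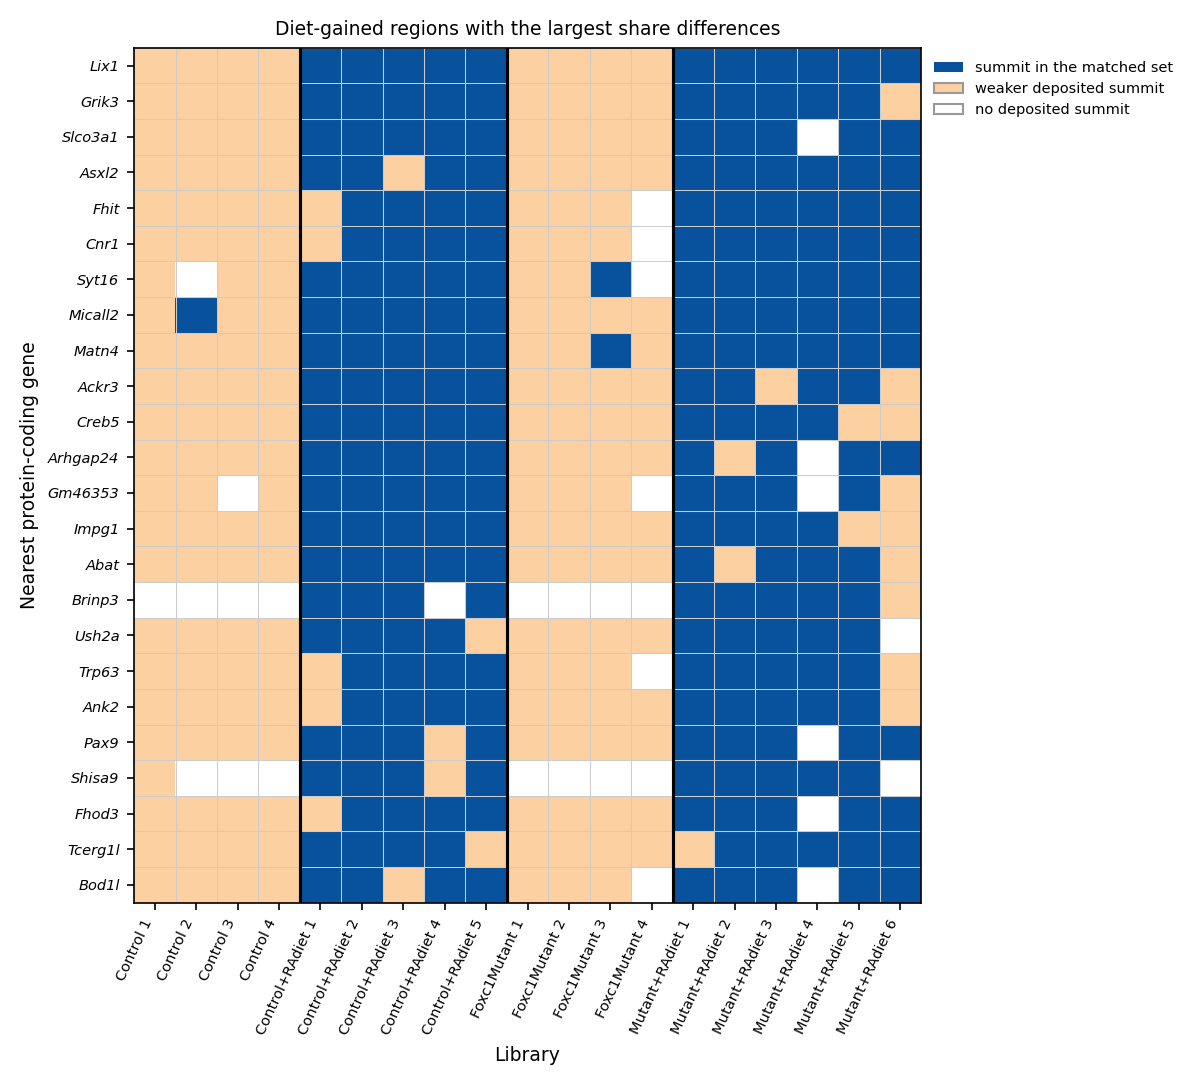
Shown are 24 of the 25 members with the largest sums of share differences (rows, labelled by nearest gene) in each library (columns, by group). Dark cells have a matched summit, pale cells only a weaker deposited one and white cells none; in 16 rows all 8 libraries off the diet have a summit of some rank.

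For 8 members (0.993%; 0.316% of all regions) no library off the diet had a deposited summit within 200 bp. The one found most often on the diet was at chr1:147187838-147187876, 285385 bp from Brinp3, a member of a neural gene family named for induction by BMP and retinoic acid. It ranked 18856, 16612, 16290 and 16183 in Control+RAdiet 1, 2, 3 and 5, with no summit in replicate 4, and 13135, 10729, 9442, 8745, 13083 and 44329 in Mutant+RAdiet 1 to 6. The other 7 lay nearest to Galnt10, Cyhr1, Kmt2c, Pou3f3, Ap4m1, Lag3 and Prkca. At Cyhr1, 55 bp from a gene end, the summit ranked between 572 and 1684 in 3 Control+RAdiet and 3 Mutant+RAdiet libraries and was missing from all others, so a strong peak had no weaker summit elsewhere within 200 bp.

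Several of these had a region lost on the diet close by. Of the 806 members, 24 (2.98%) had a region lost in both genotypes within 1 kb, as 64 of all regions did (0.143%), at gaps of 234 to 885 bp with a median of 397.5 bp. By Brinp3 the lost region, 318 bp away, had a matched summit in 3 Control, 3 Foxc1Mutant, 1 Control+RAdiet and 0 Mutant+RAdiet libraries, while the member had 0, 0, 4 and 5. By Cyhr1 the lost region 236 bp away was found in 4 Control, 4 Foxc1Mutant, 2 Control+RAdiet and 3 Mutant+RAdiet libraries, and the member in 0, 0, 3 and 3. Kmt2c, a histone methyltransferase, and Pou3f3, a neural transcription factor, had such pairs at 267 and 234 bp. Other pairs lay by Gng8, Nell2 and Six2 and inside Tead1, Dab1 and Reln. In 12 of the 24 pairs the lost region was matched in at most 2 of the 11 libraries on the diet, and in the other 12 it was matched in at least 4 of them, so at those the position used off the diet was also common on it. Whether neighbouring summits belonged to 1 peak was not tested.

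Within 100 kb of a gene end, 546 members belonged to 519 genes, and 26 genes had 2 or more. Lrmda had 3, and Sox2, Fgfr2, Epha4, Slit2, Eya4, Creb5, Pax9 and Zfp536 were among those with 2. Of the 19 gene lists examined, 376 genes in all, 25 of 1369 assigned regions were members (1.83%), against 546 of 36028 over all genes (1.52%). Regions lost in both genotypes numbered 24 in the lists and 618 over all genes. By list, the lost regions outnumbered the members for gliogenesis (4 against 2), Wnt and BMP (2 against 1) and meningeal fibroblasts (2 against 0). The same held for Notch, endothelial and mural genes (1 against 0 each). Lost regions matched members for projection neurons (4 and 4), and numbered 3 against 4 members for neural stem cells. The lists describe where members fell, and their counts are small.

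The retinoic acid list had 5 members among 110 regions (4.55%) and 2 regions lost in both genotypes. Of the 5 members, 4 are described here. Rarg is a receptor, Rxrg a partner receptor, Crabp1 binds retinoic acid inside the cell, and Meis1 is a homeodomain factor that responds to retinoic acid.

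The Rarg region whose sequence is shown above, chr15:102246547-102246578, had a summit in 1 Control library (rank 30329) and 3 Foxc1Mutant libraries (27595, 48574 and 34593). On the diet it ranked 21675, 25165 and 22499 in Control+RAdiet 1, 3 and 5, with none in 2 and 4, and 38733, 24871, 13876, 22411 and 27331 in Mutant+RAdiet 2 to 6, with none in 1. At Meis1 the region 2512 bp from a gene end ranked 12765 in Control 1 and 11589 in Foxc1Mutant 4, while its best rank on the diet was 11786, in Control+RAdiet 5. The region 14824 bp from Crabp1 ranked 32459 to 43882 in Control and 16493 to 36453 in Control+RAdiet. Where present, it ranked 22441 to 61038 in Foxc1Mutant and 26375 to 34385 in Mutant+RAdiet. The region 14313 bp from Rxrg ranked 31986 to 37578 in Control and 19621 to 42884 in Control+RAdiet, with medians of 33044.5 and 32735. In the mutants that region ranked 35433 to 60852 without the diet and 26340 to 42387 with it. At both regions the ranges with and without the diet overlapped in each genotype.

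Genes of neural stem cells had 4 members among 191 regions (2.09%). Sox2, a transcription factor that maintains them, had a pair. The first, chr3:34668029-34668086, lay 15596 bp from a gene end and had summits at ranks 33555 and 55378 in Control 1 and 3 and none in Control 2 and 4. It ranked 47630, 53034, 14215 and 30281 in Foxc1Mutant 1 to 4, 17294 to 24385 in Control+RAdiet 2 to 5, and 13853, 21712, 17687, 10161 and 13611 in Mutant+RAdiet 1 to 5. It was absent at any rank from Control+RAdiet 1 and Mutant+RAdiet 6, and Foxc1Mutant 3 stood among the libraries on the diet. The second, chr3:34638063-34638177, lay 11875 bp on the other side and ranked between 57262 and 79820 in Control and between 15942 and 40828 in Control+RAdiet, so the 2 control groups did not overlap although 3 of the 5 on the diet stayed below the matched set.

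Emx2, a cortical patterning factor, had a member at 58425 bp with a summit in all 19 libraries. It ranked 24201 to 44991 in Control and 20040 to 26067 in Control+RAdiet, and 21384 to 40196 in Foxc1Mutant and 16816 to 24265 in Mutant+RAdiet. Gli3, a transcription factor of the Hedgehog pathway, had a member inside the gene, 86585 bp from its end, that ranked 11717 and 11041 in Foxc1Mutant 3 and 4, above all libraries on the diet. Shh, the Hedgehog ligand, had a member 9716 bp away, and these 2 were the members among 94 regions of the Hedgehog list (2.13%).

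Fgfr2, a receptor for fibroblast growth factors, had 2 members inside the gene among the 67 regions of the FGF list (2.99%). The first, chr7:130258427-130258730, ranked 30677, 32831, 31399 and 41848 in Control 1 to 4 and 20185, 15293, 16614, 16223 and 20894 in Control+RAdiet 1 to 5, with no overlap. It ranked 40949, 36128, 30558 and 16629 in Foxc1Mutant 1 to 4, and 15719 to 18027 in Mutant+RAdiet 1 to 5 and 32186 in Mutant+RAdiet 6. Foxc1Mutant 4 and Mutant+RAdiet 6 were again the libraries out of place.

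Of the genes of later stages, Eomes, the defining factor of intermediate progenitors, had a member 922 bp from a gene end, chr9:118477124-118477404, the single one among 73 regions (1.37%). It ranked 22771 in Control 1 and was absent from Control 2 to 4, and it ranked 18687, 17907, 18321 and 18661 in Control+RAdiet 1, 2, 3 and 5. In the mutants it was absent from Foxc1Mutant 1 and 2 and ranked 39620 and 28359 in 3 and 4, and it ranked 15607 to 33001 in Mutant+RAdiet 2 to 6. The projection neuron list had 4 members among 187 regions (2.14%), a pair by Epha4, a guidance receptor, and 1 each inside Nrp2, a semaphorin receptor, and Reln, the layering signal. Nfia and Nfix, which act in the switch to glia, had 1 each among 83 regions.

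Cell cycle genes had 3 members among 86 regions (3.49%). The Cdkn1a member shown above, chr17:29093698-29093749, had summits at ranks 14732 and 17662 in Control 1 and 3, 12314 and 15212 in Foxc1Mutant 3 and 4, 11322 to 21232 in Control+RAdiet and 8882 to 18088 in Mutant+RAdiet. The other 4 libraries off the diet had no summit of any rank there, and where it was present its rank off the diet lay within the range on it. Cdk6, a cyclin-dependent kinase, had a member inside the gene that ranked 14763 to 26961 in all 11 libraries on the diet and 18302 to 44664 in 7 of 8 off it. Mycn, a growth regulator, had 1 at 52096 bp.

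The Notch list had no member among 127 regions and 1 lost region, and the ganglionic eminence list none among 83. Wnt and BMP genes had 1 among 147 (0.680%), by Wnt7a, and cortical hem and choroid plexus genes had 2 among 56, by Lmx1a and Otx2. No member was assigned to the lists for endothelial (25 regions), mural (16), meningeal (38), microglial (21) or erythroid cells (6). The number of meningeal list regions with a matched summit was 19 to 23 in Control, 19 to 22 in Control+RAdiet, 20 to 25 in Foxc1Mutant and 17 to 24 in Mutant+RAdiet. For the mural list they were 11 to 13, 9 to 10, 4 to 10 and 4 to 14 in the same order, so the control groups did not overlap and the mutant groups did; the part of this in the results was not tested. The endothelial, microglial and erythroid ranges overlapped between diet and no diet in both genotypes. A region within 1 kb of a gene end was found in all libraries at 15 of 29 stem cell genes and 17 of 29 cell cycle genes. The same held for 8 of 25 projection neuron, 4 of 23 ganglionic eminence and 4 intermediate progenitor genes, and for 6282 of all 21887 genes. It held for 1 gene each of the endothelial, mural, meningeal and microglial lists. The erythroid and Hox lists had 0.

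**Figure D5:**
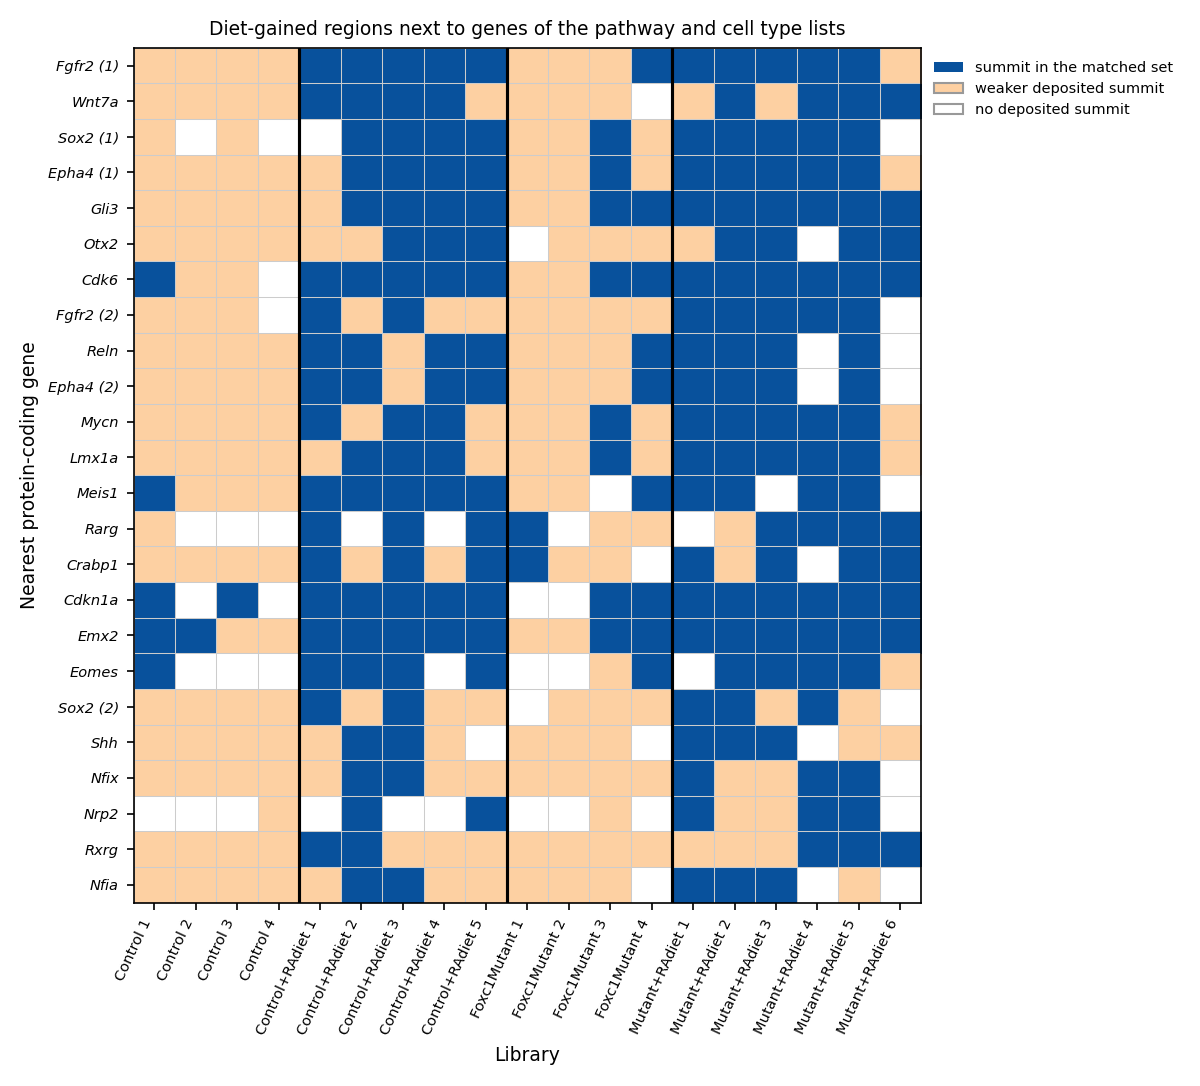
Shown are 24 of the 25 members assigned to genes of the lists (rows) in each library (columns, by group), coloured as in the plot of the largest differences. Matched summits off the diet are most frequent in Control 1, Foxc1Mutant 3 and Foxc1Mutant 4.

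Genotype was the contrast that the rule did not use directly. Fisher's exact test of presence, two-sided and adjusted over all 44878 regions, called 0 regions between mutants and controls in either diet. At an unadjusted p under 0.05, 23 regions were higher (0.0513%) and 45 lower (0.100%) in Foxc1Mutant than in Control, and 44 higher (0.0980%) and 93 lower (0.207%) in Mutant+RAdiet than in Control+RAdiet. The members had 0 in each, which the limits of the rule impose, because a member cannot be present in all libraries of a group off the diet and must be present in some libraries of both groups on it. The smallest p that 4 against 4 libraries allow is 0.0286, and 6 against 5 allow 0.00216, so the adjusted test could call a region only if far more regions than these reached the smallest p.

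On a rank score (1 minus the rank divided by the number of matched summits, 0 where absent), limma called 0 regions after adjustment in both genotype contrasts. At an unadjusted p under 0.05 it had 9.82% of all regions and 5 members (0.620%) without the diet, and 3.23% of all regions and 67 members (8.31%) on the diet, 54 of them with higher ranks in Mutant+RAdiet. No member passed adjustment. The score is 0 where a summit is absent and the rule limits presence off the diet, which bears on the 5 members. The rule's demand for presence on the diet in both genotypes bears on the 67, so neither count is a test of the members.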

How the data were processed

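The 19 libraries are ATAC-seq of Prom1-enriched E14 forebrain cells. The submitters' processing notes name BWA, MACS2, Signac and DiffBind and the builds mm10 and GRCm38, with no versions. The authors deposited a summit list per library, whose score is the −log10 q-value of MACS2, called per library and not scaled for depth; the lowest score was 1.30. Read depth is not given in the sources used here, so scores were not compared between libraries, and ranks within a library were used in their place, over the 29112 best summits of each. Lists ran from 29112 to 122591 summits, 1547369 in all.

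Summits were chained at 200 bp in Python 3.11.15, and distances run from the region midpoint to the nearest end of 21887 protein-coding genes (RefSeq, GRCm38.p6, which has the coordinates of mm10). Genes were assigned within 100 kb. Promoter windows existed for 17492 of these genes. A weaker summit is any deposited one within 200 bp. Presence was compared with Fisher's exact test (scipy 1.17.1) with Benjamini-Hochberg adjustment over all regions, and ranks with limma 3.58.1 on 1 minus rank divided by the number of matched summits, 0 where absent. Both were tested on simulated data. Named members are the 25 with the largest sum of differences, those at list genes, those at the threshold and genes with 2 or more members; members with no summit off the diet, pairs with a lost region and the promoters printed were chosen after their values were seen. The members and lists were chosen with earlier results of these data known. Alternatives covered the number of summits, the chaining distance, the library filter, the share difference, each library left out and a replicate block. Results for 2 members are not reported here, and these are left out of the figures.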

Additional observations from a re-analysis of the deposited data

Results flagged for a closer look

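Within groups of 4 to 6 libraries, 5 values stood apart from the rest of their group by Dixon's criterion, which chance meets in about 1 of 20 groups; 32 groups were examined. Foxc1Mutant 4 had 49804 deposited summits, while the other Foxc1Mutant libraries had 108298 to 115007. In the same library 67.7% of members had a summit of any rank, and 59.1% of the members without a matched summit had a weaker one, both below the other Foxc1Mutant libraries. Mutant+RAdiet 4 had a weaker summit at 0% of the members it lacked, because its whole list of 29112 is the matched set. Control 1 had a summit of any rank at 92.2% of members, above 88.6% to 89.1% in the other controls.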

How the results depend on the processing

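Membership rests on the number of summits taken per library. The rule gave 226 regions with all deposited summits, 442 with 14556 per library and 1436 when the shortest list was left out and 48323 per library were taken, and only 30, 23 and 71 of the 806 members were found again. Leaving out that library with the number kept at 29112 gave 851 regions and 714 of the members. Share differences of 0.5 and 0.6 left 464 and 102. Leaving out each library in turn gave 623 to 1096 regions, and a chaining distance of 100 or 500 bp gave 824 or 778. Turned round, the rule gave 9323 lost regions with all deposited summits, 351 with 14556 per library and 1307 with 48323. The held-out difference between diet and no diet was 21.9 points in controls with all deposited summits, against 37.2, and 0.0428 in mutants, against 21.6; leaving out each library gave 24.9 to 40.2 and 16.5 to 36.5 points. That left-out reading was added after the data were seen.

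Fisher's exact test called 0 regions in all 4 contrasts and under each alternative run, including each library left out. The smallest possible p was 0.00216 to 0.0286 in the full contrasts. Over 44878 regions, a call needed far more regions at the smallest p than were seen, so the repeated 0 says nothing about stability. For the diet 1176 regions in controls and 543 in mutants had an unadjusted p under 0.05, and limma had 3197 and 5631. With the replicate number as a block, limma called 160 regions for the diet in mutants, 118 of them higher on the diet, and 0 in the other 3 contrasts. Same-numbered libraries correlated at -0.32 to 0.20 in their deviations from the group means, and 11 of 34 comparisons placed a library closest to its own number. For the diet in controls this was 6 of 8, with all 4 correlations above 0, at 0.04 to 0.20. As not every correlation passed 0.1 in any contrast, the libraries were taken to share only a number. The depth in reads behind each summit is unknown, so absence from a list is not absence of open chromatin.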
